A study of Mus musculus with 12 samples.

Results

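Scavenger receptors take up modified lipoproteins, haemoglobin complexes, lipids and other debris, and several of them carry the scavenger receptor cysteine-rich (SRCR) domain. Of the 24421 genes in the table, 9 were chosen by symbol: the T cell SRCR receptors Cd5 and Cd6, the SRCR receptor Cd163l1, the macrophage genes Cd163, Cd5l and Msr1, and the class B receptors Cd36, Scarb1 and Scarb2. They were chosen with this comparison already known, so their differences between genotypes are given as a description. The series asks what loss of H1 linker histones, the proteins that bind the nucleosome and its linker DNA, does to lymphocyte gene expression. Polyadenylated RNA of CD8 T cells was sequenced from 2 cTKO mice, with 1 female and 1 male, and from 2 WT mice, also with 1 female and 1 male. All were C57BL/6, and each sample held 500000 CD8+ cells sorted from spleen by flow cytometry. The labels give for cTKO no allele, no promoter that drives a deletion and no age. The 12 samples of the series also cover B cells and CD4 T cells, which were not analysed here.

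The library of the female held more reads than that of the male in both genotypes, so library size and sex cannot be told apart. Reads over the genes whose whole reads could be worked out numbered 8765677 and 5710361 in the female and the male cTKO library and 9028400 and 6152226 in the female and the male WT library. The Y-linked genes Kdm5d, Uty and Eif2s3y had between 479 and 1271 reads in each male library and 0 in each female one. The female cTKO library stood apart at low counts: 1165 genes had their single read of the study there, against 156 in the male cTKO, 102 in the female WT and 97 in the male WT library. The linker histone gene Hist1h1c had 0 and 0 reads in the cTKO libraries and 41 and 56 in the WT libraries, and Hist1h1d had 0 and 0 against 5 and 11. For Hist1h1e the authors' deposited table gave a log2 difference of -8.93 with an adjusted p of 1.36e-06. The table does not state the direction of its fold changes, which was read as cTKO over WT from these 3 genes. The defining CD8 T cell genes were abundant, with mean normalized counts over the 4 libraries of 20303 for Cd8a, 31813 for Cd8b1 and 12041 for Cd3e, while Cd4 had 1 and 0 reads in the cTKO and 1 and 4 reads in the WT libraries.

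CD5 and CD6 sit on the surface of T cells beside the antigen receptor, where CD5 dampens its signal and CD6 binds the adhesion molecule ALCAM. CD163 clears haemoglobin bound to haptoglobin and is a marker of tissue macrophages, CD5L is a protein that macrophages secrete, and MSR1 takes up modified lipoproteins. CD36 imports long-chain fatty acids, SCARB1 is the receptor for high-density lipoprotein, and SCARB2 is a membrane protein of the lysosome. Cd163l1, which RefSeq also lists under the synonym Scart1, and its neighbour 5830411N06Rik, with the synonym Scart2, are known in the mouse from gamma delta T cells.

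Of the 9 genes, Cd163l1 alone was higher in cTKO CD8 T cells at the authors' adjusted p under 0.05, at 26.4 times its WT level. None was lower. The authors' deposited table gave an adjusted p for 6 of the 9 genes, and 5 of these 6 were not called. The background share was 13.4% called among 12972 tested genes, 9.77% higher and 3.61% lower. Cd5l, Msr1 and Cd36 had too few reads to be tested, with 13 reads in all over the 4 libraries. The median log2 fold change of the 6 tested genes was -0.24 in the authors' deposited table, against 0.04 over all tested genes. Among the 5 tested genes with reads per library, the cTKO pair lay above the WT pair without overlap for 1 and below it for 3, while 1 overlapped. Over 11686 tested genes with such reads these shares were 33.2% above and 26.2% below.

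**Figure D1:**
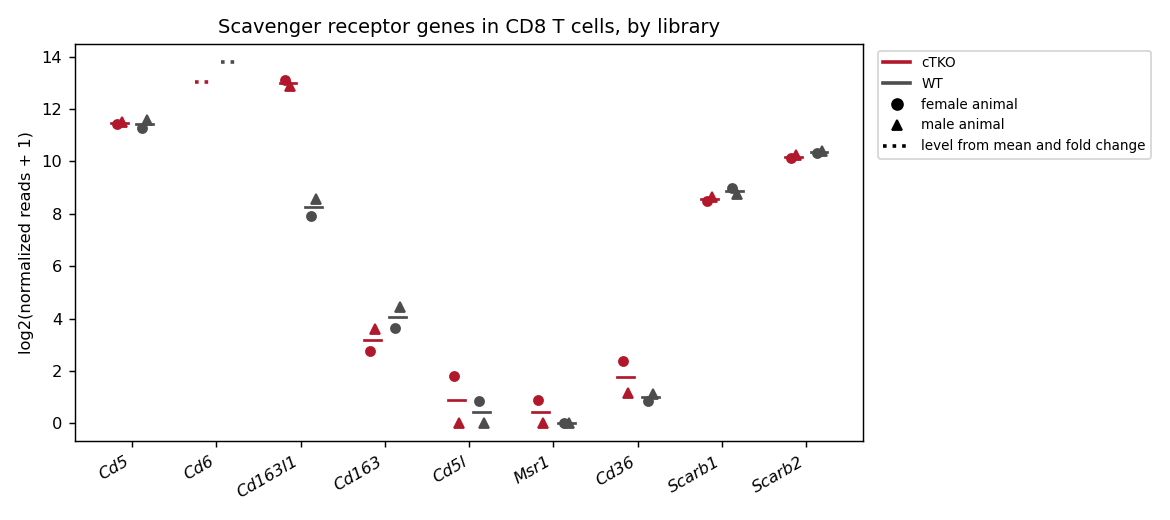
Normalized reads (log2 of reads divided by the size factor, plus 1) of the 9 scavenger receptor genes in each of the 4 CD8 T cell libraries, with cTKO in red left of WT in grey. Circles are the female animal, triangles the male animal and solid bars the mean of the 2 values on this scale. Dotted bars mark Cd6, for which only the level from the table's mean and fold change is shown. Cd163l1 is the gene with the wide gap between cTKO and WT.

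The data for Cd163l1 and the gene next to it are shown first with the DNA around their annotated starts, since this is where the pair can be compared by sequence. Each stretch runs from 250 bases before to 50 bases after a start in RefSeq on GRCm38.p6, the build of the deposited data, and reads 5′ to 3′ with each CG dinucleotide in capitals. The Cd163l1 stretch lies at chr7:140218017-140218316 and that of 5830411N06Rik at chr7:140247051-140247350, both on the plus strand.
Cd163l1: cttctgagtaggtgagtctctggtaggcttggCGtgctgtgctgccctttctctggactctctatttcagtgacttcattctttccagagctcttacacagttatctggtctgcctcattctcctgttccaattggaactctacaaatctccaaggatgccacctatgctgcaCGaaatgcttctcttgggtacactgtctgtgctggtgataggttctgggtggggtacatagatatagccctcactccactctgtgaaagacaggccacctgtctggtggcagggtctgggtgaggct
5830411N06Rik: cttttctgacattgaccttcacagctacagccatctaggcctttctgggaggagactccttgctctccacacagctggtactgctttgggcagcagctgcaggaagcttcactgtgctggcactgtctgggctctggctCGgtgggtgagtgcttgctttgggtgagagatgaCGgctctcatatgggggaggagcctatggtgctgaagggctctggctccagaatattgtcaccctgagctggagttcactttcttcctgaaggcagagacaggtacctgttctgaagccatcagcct

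Both stretches held 2 CG dinucleotides, a motif that reads the same on both strands. Their GC content was 50.7% for Cd163l1 and 55.0% for 5830411N06Rik. Among 32851 promoter stretches of this length, 23.3% held 2 or fewer CG dinucleotides, and the median was 7. The Cd163l1 start used in that table lies inside the span of the gene. The promoter of Cd163 (chr6:124304401-124304700) also held 2 CG dinucleotides, those of Cd5 and Cd36 held 3 each, that of Cd5l held 0 and that of Scarb2 held 28. By call, the median was 19 CG dinucleotides at the promoters of 972 higher genes, 18 at those of 369 lower genes, 21 at those of 9002 tested genes that were not called and 4 at those of 7938 untested genes.

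Cd163l1 (Entrez 244233, chromosome 7, 140197218 to 140231145 on the plus strand) had 10653 and 6012 reads in the female and the male cTKO library and 294 and 325 reads in the female and the male WT library. Divided by the size factor of each library, these were 8823 and 7469 normalized reads in cTKO and 242 and 375 in WT. The means were 8146 ± 958 normalized reads in cTKO and 309 ± 94.2 in WT (SD, n = 2 each). Both cTKO animals were far above both WT animals, and the 2 animals of a genotype differed far less from each other. The authors' deposited table put the log2 fold change at 4.73 (SE 0.33; adjusted p 1.42e-43, DESeq2). This was the 3rd smallest p-value among 12972 tested genes. Of the 231 genes that were higher and had a mean normalized count of at least 1000, 5 had a log2 fold change at least as large as that of Cd163l1, itself included. The gene had the 27th highest cTKO level among 1268 higher genes. In an alternative fit, by limma on the recovered reads, the call was lost without either cTKO library, with an adjusted p of 0.118 without the female and 0.0864 without the male, while the log2 fold change stayed between 4.43 and 5.06 when any 1 library was left out.

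Per kilobase of merged exon, the Cd163l1 level was 2291 and 1939 normalized reads in the 2 cTKO libraries and 62.9 and 97.4 in the 2 WT libraries. In cTKO it stood above all the other scavenger receptor genes by this measure, while in WT it ranked 4th, between Scarb2 and Scarb1.

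**Figure D2:**
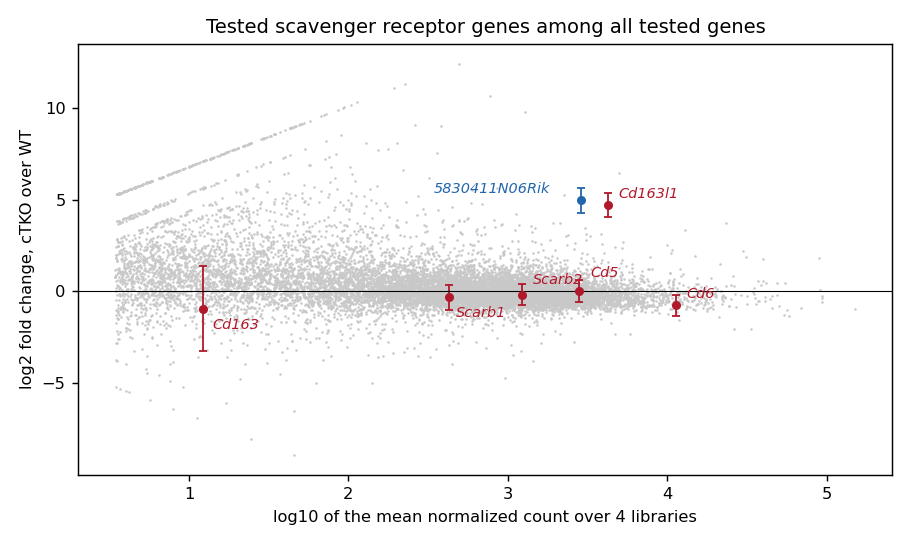
Log2 fold change of cTKO over WT against the log10 of the mean normalized count for all 12972 tested genes (grey), with the 6 tested scavenger receptor genes in red and 5830411N06Rik in blue, and bars for 95% intervals from the authors' deposited standard errors. The 2 neighbouring SRCR genes stand near a log2 fold change of 5, and the intervals of Cd5, Scarb1, Scarb2 and Cd163 include 0.

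The gene next to Cd163l1 moved with it. 5830411N06Rik (Entrez 244234, chromosome 7, 140247279 to 140300734), another SRCR gene, begins 16.1 kb after Cd163l1 ends. It had 7609 and 3966 reads in the cTKO libraries and 158 and 199 in the WT libraries, or 6302 and 4927 normalized reads in cTKO and 130 and 230 in WT. Both cTKO libraries were again far above both WT libraries. The authors' deposited table put the log2 fold change at 4.97 (SE 0.35, adjusted p 1.45e-41), a 31.3-fold higher level in cTKO. As for Cd163l1, its call in the limma fit was lost without either cTKO library (adjusted p 0.146 without the female and 0.0966 without the male). The ratio of Cd163l1 to 5830411N06Rik normalized reads was 1.40 and 1.52 in the cTKO libraries and 1.86 and 1.63 in the WT libraries. Since near-identical copies could share reads, the transcripts were searched for common stretches of 50 bases: 0 of the 4072 stretches of Cd163l1 and 0 of the 5826 of 5830411N06Rik occurred in any other gene.

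Of the 39 other genes within 500 kb, 21 had no read and 12 were tested, and 2 of these, 5830411N06Rik and Sprn, were called higher and none lower, with 9.77% called higher over all tested genes. Sprn, which encodes the prion-like protein shadoo and was picked out after its values were seen, had 45 and 46 reads in the cTKO libraries and 0 and 0 in the WT libraries. The olfactory receptor gene Olfr524 lies inside the span of Cd163l1 and had 20 and 15 reads in cTKO and 3 and 2 in WT, with 2.88 as log2 fold change and 0.155 as adjusted p in the authors' deposited table. Whether reads were counted by strand is not given in the sources used here, so its reads cannot be told apart from those of Cd163l1. Olfr527 had 2 and 4 reads in cTKO and 0 and 0 in WT and was not tested, and Olfr522, Olfr523 and Olfr525 had no read.

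**Figure D3:**
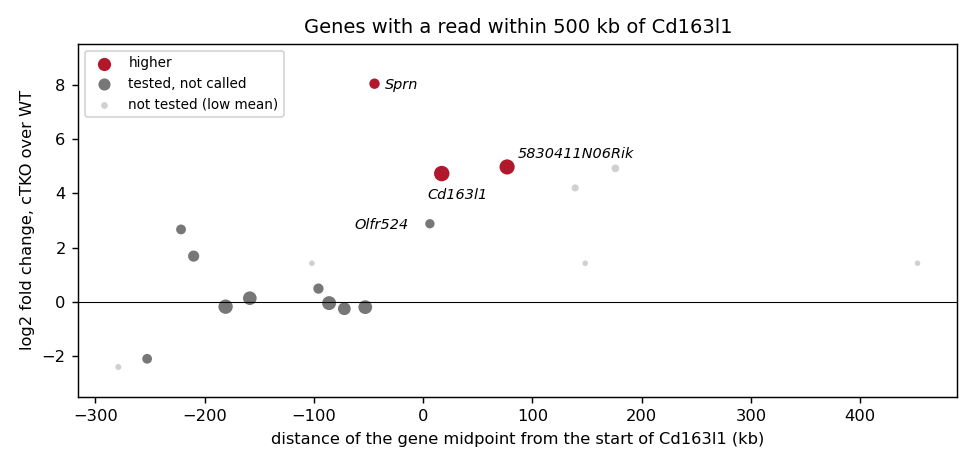
Log2 fold change of cTKO over WT for the genes with a read within 500 kb of Cd163l1, by the distance of each gene's midpoint from the start of Cd163l1 in kilobases, with larger points for higher mean counts. Red points are called higher, dark grey points are tested and not called, and light grey points are untested. Sprn and the untested genes had few reads, and the plotted fold change of a gene with 0 reads in WT is no bound.

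By profile over the 4 libraries, 5830411N06Rik was also the gene most like Cd163l1 among 10477 tested genes, with a Euclidean distance of 0.298 between centred log2 values. Next came Dcaf12l1 on the X chromosome at a distance of 0.324, with 267 and 173 reads in cTKO and 6 and 6 in WT. Dlg5 on chromosome 14, which encodes a scaffold protein of cell junctions, followed at 0.348 with 725 and 418 reads in cTKO and 26 and 25 in WT. The authors' deposited table gave log2 fold changes of 5.22 for Dcaf12l1 and 4.49 for Dlg5.

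Because both SRCR neighbours are known from gamma delta T cells, the other genes of that cell type are given beside them. A list of 20 gamma delta and innate-like T cell markers had 13 genes in the table by symbol, and 6 were tested. None of the 6 was lower and 2 were higher, beside 3.61% lower and 9.77% higher over all tested genes. The 2 higher genes were Cd163l1 and 5830411N06Rik themselves. Without this pair, the other 11 genes found in the table summed to 108 and 108 normalized reads in cTKO and 128 and 174 in WT. Most of these sums came from Serpinb1a, picked out after its values were seen, with 68.7 and 94.4 normalized reads in cTKO and 93.0 and 135 in WT. Sox13 had 12 and 0 reads in cTKO and 1 and 0 in WT, Zbtb16 had 4 and 1 in cTKO and 0 and 1 in WT, and Blk had 3 and 0 in cTKO and 5 and 2 in WT. Maf had 15 and 3 reads in cTKO and 0 and 2 in WT. Sox13, Zbtb16 and Blk were not tested, and none of the 4 other tested markers was called.

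Effector, memory and natural killer genes moved in the same libraries. In the effector and memory list 21 of 24 tested genes were higher and 0 lower, with a median of 2.66 for the log2 fold changes of the authors' deposited table. In the naive T cell list 0 of 15 were higher and 4 lower, with a median of -0.56 there. The 16 effector and memory genes with reads per library summed to 42299 and 36257 normalized reads in cTKO and 8097 and 7843 in WT, and the 6 such naive genes to 3076 and 4636 in cTKO and 10460 and 15240 in WT. The exit receptor S1pr5 had 5666 and 3307 reads in cTKO and 156 and 85 in WT. Of 15 tested natural killer markers 8 were higher, 1 was lower and 6 were not called. Their median log2 fold change in the authors' deposited table was 2.11. Over all tested genes 9.77% were higher and 3.61% lower. Among the higher was Klrb1c, with 1606 and 881 reads in cTKO and 180 and 119 in WT. The lower gene was Fcer1g, with 10 and 9 reads in cTKO and 94 and 41 in WT. The defining marker Ncr1 had 22 and 1 reads in cTKO and 2 and 4 in WT and was not called. Of the tested markers of other cells that could be in the sort, 0 of 12 B cell genes were higher and 5 lower, 3 of 7 monocyte and neutrophil genes higher and 0 lower, 1 of 8 dendritic cell genes higher and 1 lower, 0 of 9 platelet and erythroid genes higher and 1 lower, and 2 of 7 CD4 T cell genes higher and 0 lower. The 3 higher monocyte and neutrophil genes were Cx3cr1, Ccr2 and Ly6c2 and the higher dendritic cell gene was Itgax, and of these Cx3cr1, Ly6c2 and Itgax are also in the effector and memory list. The neutrophil genes S100a8, S100a9 and Ngp had 22, 19 and 17 reads in the female cTKO library and 0 in the other 3 libraries, and none passed the test. The lists of effector, naive and natural killer genes were chosen with earlier results of these libraries known, so their direction is not independent evidence. In a bulk sample a larger share of cells with a gene and more of its RNA per cell cannot be told apart, and the part of these cell states in the Cd163l1 level was not tested.

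Cd5 and Cd6, the SRCR receptors of T cells, lie 50.3 kb apart on chromosome 19 and were not called. Cd5 (10718107 to 10739026 on the minus strand) had 3317 and 2352 reads in the cTKO libraries and 3017 and 2682 in the WT libraries, or 2747 and 2922 normalized reads in cTKO and 2484 and 3097 in WT. Both cTKO values lay between the 2 WT values. The log2 fold change was 0.02 in the authors' deposited table (SE 0.30, adjusted p 0.973), with a 95% interval from -0.56 to 0.61.

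Cd6 (10789339 to 10830062 on the minus strand) had the highest mean of the 9 genes, 11309 normalized reads over the 4 libraries in the authors' deposited table. The level worked out from this mean and the fold change was 8400 normalized reads in cTKO and 14218 in WT. The log2 fold change was -0.76 (SE 0.29) in the authors' deposited table, with a 95% interval from -1.33 to -0.19 that excludes 0, and the adjusted p was 0.0594, just above the threshold. The whole reads of Cd6 could not be settled, because 7 sets of whole numbers gave the deposited mean and fold change. In 1 of these sets the libraries of each genotype agreed within 1.16-fold, at 9530 and 7170 reads in cTKO and 18518 and 11421 in WT. In the other 6 sets a pair of libraries of 1 genotype differed at least 4.37-fold.

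Among ligands and signalling partners of CD5 and CD6, 2 of 25 tested genes were lower and 0 higher, with a median log2 fold change of 0.08. Over all tested genes 3.61% were lower and 9.77% higher. Ptpn6, the phosphatase SHP-1 that counters antigen receptor signals, had -0.93 as log2 fold change and 0.0223 as adjusted p in the authors' deposited table. Sntb1, the other lower gene of this list, encodes a syntrophin adaptor and had 376 and 212 reads in cTKO and 707 and 659 in WT. Whether it is a partner of CD5 or CD6 was not tested here. The CD6 ligand gene Alcam had 80 and 37 reads in cTKO and 24 and 15 in WT and did not pass the test, with an adjusted p of 0.130 in the authors' deposited table. Cd72, which encodes a proposed CD5 ligand on B cells, had 1518 and 1646 reads in cTKO and 2715 and 1713 in WT, with an adjusted p of 0.543 there. Of 17 tested T cell identity genes 0 were higher and 1, the adaptor gene Lat, was lower.

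The macrophage scavenger receptors were near the limit of counting. Cd163 (chromosome 6, 124304636 to 124330529) had 7 and 9 reads in the cTKO libraries and 14 and 18 in the WT libraries, or 5.80 and 11.2 normalized reads in cTKO and 11.5 and 20.8 in WT. The 2 cTKO values were below both WT values, by a narrow margin for the male cTKO library. The authors' deposited table put the log2 fold change at -0.94 (SE 1.18, adjusted p 0.661), with a 95% interval from -3.25 to 1.38. This interval is wide and includes 0, so no difference was detected. Cd5l (chromosome 3, 87357881 to 87371074) had 3 and 0 reads in cTKO and 1 and 0 in WT. Msr1 (chromosome 8, 39543232 to 39642750) had 1 read in the female cTKO library and 0 in the other 3 libraries, where 0 reads allow up to 3. Most reads of Cd5l and Msr1 thus lay in the female cTKO library, the one with many genes at a single read, and the part of that library in these counts was not tested.

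Other macrophage genes were present at low levels too. Of 11 tested macrophage markers 2 were higher, Axl and Hmox1, and 0 lower, with a median of 1.58 for the log2 fold changes of the authors' deposited table. The 20 macrophage genes summed to 852 and 822 normalized reads in cTKO and 459 and 507 in WT. Among the defining markers, Adgre1 had 4 and 0 reads in cTKO and 2 and 0 in WT, Csf1r had 25 and 6 in cTKO and 2 and 3 in WT, and Lyz2 had 43 and 6 in cTKO and 20 and 11 in WT. Vsig4 and Fcgr1 had no read in any library. Axl, a receptor for dying cells that T cells of some states also express, had 271 and 211 reads in cTKO and 84 and 80 in WT. Of 13 tested genes of haemoglobin handling and CD5L partners, 2 were higher, 1 was lower and 10 were not called, beside 9.77% higher and 3.61% lower over all tested genes, with a median of -0.37 for the log2 fold changes of the authors' deposited table. Hmox1, the haem-degrading enzyme, had 99 and 52 reads in cTKO and 17 and 13 in WT, Fasn, fatty acid synthase, had 3241 and 723 in cTKO and 755 and 523 in WT, and Blvra, a biliverdin reductase, had 402 and 531 in cTKO and 1538 and 779 in WT.

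The class B receptors showed no called difference. Scarb1 (chromosome 5, 125277087 to 125341094) had 435 and 323 reads in the cTKO libraries and 621 and 377 in the WT libraries, or 360 and 401 normalized reads in cTKO and 511 and 435 in WT. Both cTKO values were below both WT values, and the gap between the nearest values was smaller than the distance between the 2 WT animals. The log2 fold change was -0.32 in the authors' deposited table (SE 0.34, adjusted p 0.603), with a 95% interval from -0.99 to 0.36. Scarb2 (chromosome 5, 92441311 to 92505657) had 1344 and 972 reads in cTKO and 1540 and 1164 in WT, or 1113 and 1208 normalized reads in cTKO and 1268 and 1344 in WT. Its log2 fold change was -0.17 in the authors' deposited table (SE 0.30, adjusted p 0.767), with a 95% interval from -0.76 to 0.42. Cd36 (chromosome 5, 17781690 to 17888959) had 5 and 1 reads in cTKO and 1 and 1 in WT and was not tested.

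In lipoprotein and fatty acid handling 2 of 22 tested genes were higher, 1 was lower and 19 were not called, against shares of 9.77% higher and 3.61% lower over all tested genes, with a median of 0.18 for the log2 fold changes of the authors' deposited table. Soat2, which esterifies cholesterol, had 445 and 166 reads in cTKO and 48 and 28 in WT. Cpt1a, which admits fatty acids to mitochondria, had 3194 and 1639 reads in cTKO and 783 and 1045 in WT, and Lipa, the lysosomal acid lipase, had 1103 and 768 in cTKO and 2341 and 1323 in WT. Among lysosomal partners of SCARB2, 3 of 20 tested genes were higher (Igf2r, Npc1 and Ctsd) and 1 lower (Hexa), while 16 were not called, with a median of -0.16. Igf2r, the receptor that sorts lysosomal enzymes, had 4978 and 1088 reads in cTKO and 1060 and 797 in WT, so the male cTKO library lay much nearer to the WT libraries than the female one.

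Of the other SRCR domain genes, 7 of 15 were tested and 5830411N06Rik alone was called, with a median log2 fold change of 0.43 over the 7. Prss12, a secreted protease with SRCR domains, had 1179 and 984 reads in cTKO and 927 and 749 in WT without passing the test, and Dmbt1 had 22 and 2 in cTKO and 15 and 34 in WT. Of other scavenger receptors 12 of 27 were tested, with 1 higher and 1 lower and a median of 1.05. Over all tested genes 9.77% were higher and 3.61% lower. Cd44, the hyaluronan receptor and memory T cell marker, had 5464 and 2831 reads in cTKO and 630 and 733 in WT. Both cTKO libraries stood above both WT libraries for Cd44.

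**Figure D4:**
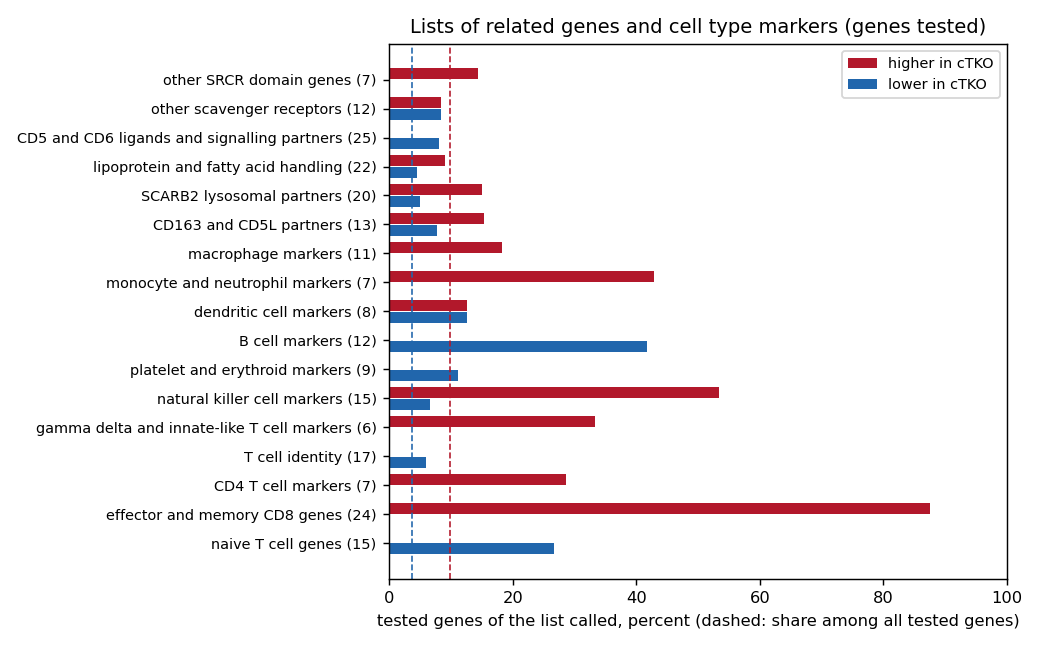
Percent of the tested genes of each list called higher (red) or lower (blue) in cTKO at the authors' adjusted p under 0.05, with the number tested in brackets and dashed lines at the shares among all tested genes, 9.77% higher and 3.61% lower. The 2 higher genes in the gamma delta list are Cd163l1 and 5830411N06Rik, and the other marker lists are shown beside the scavenger receptors because their cells could be in the sort.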

How the data were processed

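The table analysed here holds 1 comparison of the 2 genotypes in CD8 T cells and no column of a sample. STAR and DESeq2 are named, with the builds mm10 and GRCm38.p6, per the submitters' processing notes, while tool versions, annotation, counting tool and strand setting are not given in sources used here. Per the file headers, the authors deposited each gene's mean normalized count, a signal in which reads are scaled by the size factor of the library. The log2 fold change, its standard error on the log2 scale and the test score are those the authors deposited. The p-value and adjusted p-value of each gene are also as the authors deposited them, and genes at or under a mean of 3.43 carry no adjusted p.

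The whole reads of each library were recovered from the mean, which adds up the reads of the 4 libraries, each divided by its library's size factor, and above a mean of 15 also from the fold change and its standard error in a 2-group negative binomial fit. This gave 1 solution for 16867 of 17742 genes with a mean below 6000 (95.07%), and for every one of 2305 distinct means below 15. Cd163l1, Cd5, Scarb1 and Scarb2 were among the solved genes. In simulated tables every single solution was right, among them all 40 made like Cd163l1 and the 33 of 40 made like Cd5 that had 1 solution. The simulated fold changes were given less scatter than the deposited ones. Fits to the solved genes missed the deposited log2 fold change by a median of 6.27e-09 and at most 1.79e-05. The simulation thus does not measure how often solutions with the larger errors are right. The size factors were 1.207396 and 0.804969 for cTKO and 1.214423 and 0.866028 for WT. Reads of Y-linked genes tied the libraries to the sexes in the labels.

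Genes were called at the authors' adjusted p under 0.05. limma (version 3.58.1, R 4.3.3) with a trend on log2(normalized reads + 0.5) was the alternative fit. The 9 genes and all gene lists were chosen with earlier results of these data known. Beside the 9, genes were eligible to be named if called in a list (up to 4 per direction by p), and not all of these are named; also eligible were defining markers, the 3 nearest genes on each side of Cd163l1 and the 3 of nearest profile; Alcam, Cd72, Prss12, Dmbt1, Serpinb1a, Maf, S100a8, S100a9 and Ngp, which the test did not call, and Sprn were added after their values were seen. Positions are those of RefSeq on GRCm38.p6, and exon lengths those of GENCODE M21. Promoter stretches are from RefSeq, where 6 of the 9 genes had an entry, and Cd6, Scarb1 and Msr1 had none. The limit of 3 reads at a count of 0 covers counting error only. Some results are not reported here.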

Additional observations from a re-analysis of the deposited data

How the results depend on the processing

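The call of Cd163l1 and its direction held under the alternatives that kept all 4 libraries, with a log2 fold change from 4.73 to 4.83. These were another filter on low means or none, re-centring, an adjusted p under 0.01, and limma with either pseudocount. Genes at a mean of 100 or more had a median log2 fold change of -0.10, and re-centring on it changed no call of a scavenger receptor gene. The limma fits covered 11686 genes with reads per library, against 12972 tested by the authors, so counts of called genes are not over the same genes. With limma 216 genes were called lower, or 237 with a pseudocount of 2, against 468 by the authors' test. By the authors' test at an adjusted p under 0.01, genes called lower numbered 230, and those called higher 824 against 1268.

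Leaving out 1 library at a time in limma, where a lone library is assumed to vary like the other genotype, gave 0 to 1 scavenger receptor genes called, 215 to 555 genes called higher and 2 to 58 called lower. Of the list genes, 60 were called as reported and 40 by limma with all 4 libraries, and 0 to 27 were called with 1 library left out. List genes without reads per library enter no limma fit, so the 60 are not over the same genes. Cd163l1 had a log2 fold change of 4.63 without the female cTKO library and 4.87 without the male, with its call lost each time, while over all 4 such fits it ran from 4.43 to 5.06. Fewer samples alone lower the power of these fits. Cd5 changed sign, to -0.01 without the male cTKO library and to -0.13 without the female WT library, within a leave-one-out range of -0.13 to 0.19, and none of these values was called. The cause was not tested.

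The animal numbers of the labels are not shared between genotypes, so sex stood in as the replicate block in limma. With this block Cd163l1 had a log2 fold change of 4.75 (adjusted p 1.22e-35), and 1665 genes were called higher and 478 lower. Fitting genotype and sex to 4 libraries leaves little spread between animals to measure. The adjusted p with the block thus rests mainly on the variance pooled over genes, and limma without the block gave 0.00052. Sex is also tied to library size here. Cd6 has no reads per library and enters no limma fit.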
